A study of Homo sapiens with 5 samples.

Results

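LIN28B, HMGA2, IGF2BP1, IGF2BP2 and IGF2BP3, 5 genes known as targets of the let-7 microRNAs, were followed in organoids of human brain tissue in culture and as grafts in the mouse brain. The members were chosen by gene symbol, with earlier results of these data known. All 5 are among the 32732 genes that the human-reference count matrices of all 5 single-cell libraries list. Their UMIs (unique molecular identifiers, 1 per captured transcript molecule) were read by stage within progenitor-like, neuron-like and astrocyte-like cells. The study asked which fates the human cells take after grafting and how the host region affects them.

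All human cells came from 1 embryonic stem cell line, H9: AAVS-ChR2-EYFP, which carries channelrhodopsin-2 and EYFP at the AAVS locus. D0 was the library of cultured day 42 organoids, taken before transplantation and dissociated with TrypLE. The other 4 libraries were grafts of such organoids in the hippocampus (HIP) or prefrontal cortex (PFC) of immunodeficient SCID mice, collected at 2 or 4 months post transplantation (MPT) as EYFP-bright tissue and dissociated with Trypsin-EDTA. They were named HIP_2MPT, PFC_2MPT, HIP_4MPT and PFC_4MPT. Each condition had 1 library, in which several organoids or mice were pooled, so no spread between animals was measured. For tests by stage, the libraries from both sites stood in as replicates, 2 per stage, and the single D0 library took its spread from them. D0 was also counted with an earlier Cell Ranger release and gene annotation, and its median human cell held 9847 UMIs against 1253 to 2759 in the grafts. A difference between D0 and the grafts and the effects of enzyme, release, annotation and depth cannot be told apart. The 2MPT and 4MPT libraries shared enzyme, release and annotation. Their quality was not alike: the median mitochondrial share per human cell was 7.31% in PFC_4MPT and 2.35% to 3.77% in the other grafts.

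LIN28B is an RNA-binding protein that blocks the maturation of let-7 precursors, and mature let-7 in turn silences LIN28B, so that both form a double-negative switch. HMGA2 is a chromatin protein of early stem and progenitor cells, and IGF2BP1, IGF2BP2 and IGF2BP3 are related proteins that bind mRNAs and affect their stability, transport and translation. In the developing forebrain these genes are known as part of an early fetal programme that declines as let-7 accumulates.

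The let-7 family reads its targets mainly through the seed, bases 2 to 8 of the mature RNA. Mature sequences of 4 family members are shown because their seed sets the motif searched for in the 5 genes. They are taken from RefSeq (GRCh38.p14), 5′ to 3′, and capitals mark the seed.
hsa-let-7a-5p: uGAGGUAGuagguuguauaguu
hsa-let-7b-5p: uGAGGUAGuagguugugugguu
hsa-let-7c-5p: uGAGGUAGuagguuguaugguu
hsa-let-7i-5p: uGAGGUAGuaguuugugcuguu
The seed GAGGUAG was the same in all 4, and pairs with the letters CTACCTC in a transcript.

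CTACCTC was searched for on the transcript strand of the annotated 3′ UTR of each gene (GENCODE v44, GRCh38, 1 transcript per gene). LIN28B, HMGA2 and IGF2BP1 each held 4 matches, while IGF2BP2 and IGF2BP3 each held 1. The longer form CTACCTCA, with an A opposite the first base of let-7, accounted for 2 of the matches in LIN28B, 1 in HMGA2, 3 in IGF2BP1, 1 in IGF2BP2 and 1 in IGF2BP3. For comparison, 9.76% of the 19527 genes with an annotated 3′ UTR held a match, 3.74% held one followed by A, and 1.15% held at least 2. Long UTRs hold more: among UTRs within 20% of the member's length, the share with a match was 23% for LIN28B (4549 bases), 14.4% for HMGA2 (2999 bases), 32.7% for IGF2BP1 (6701 bases), 12.9% for IGF2BP2 (2401 bases) and 12.4% for IGF2BP3 (2153 bases). The genes were chosen as let-7 targets, so the presence of matches is no finding. The first match followed by A in each gene is given with the 14 bases before it, so that the shared core can be compared, and capitals mark the seed match and the A.
LIN28B, chr6:105078813-105078834, plus strand: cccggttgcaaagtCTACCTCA
HMGA2, chr12:65963299-65963320, plus strand: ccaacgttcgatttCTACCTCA
IGF2BP1, chr17:49051062-49051083, plus strand: gtgtgcgaagtaaaCTACCTCA
IGF2BP2, chr3:185644220-185644241, minus strand: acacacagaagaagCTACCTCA
IGF2BP3, chr7:23311795-23311816, minus strand: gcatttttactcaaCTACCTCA
All 5 sites lie in the 3′ UTR, beginning 44, 21, 1632, 1304 and 560 bases into it in the order shown. The genes themselves span chromosome 6 from 104936616 to 105083332 (LIN28B, ENSG00000187772), chromosome 12 from 65824460 to 65966291 (HMGA2, ENSG00000149948), chromosome 17 from 48997385 to 49056145 (IGF2BP1, ENSG00000159217), chromosome 3 from 185643130 to 185825042 (IGF2BP2, ENSG00000073792) and chromosome 7 from 23310209 to 23470491 (IGF2BP3, ENSG00000136231). LIN28B, HMGA2 and IGF2BP2 overlap annotated antisense genes, whose reads are told apart only by strand.

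The human cells numbered 4885 in D0, 8277 and 5952 in HIP_2MPT and PFC_2MPT, and 6913 and 8363 in HIP_4MPT and PFC_4MPT, and any pair of libraries shared at most 20 cell barcodes. They were clustered anew and named "-like" by marker genes, so the classes can differ from those of the study. Progenitor-like cells numbered 2267, 498, 609, 500 and 555 in that order of libraries, neuron-like cells 1896, 7370, 4860, 4724 and 5788, and astrocyte-like cells 58, 340, 385, 460 and 381. Unnamed cells made up 16.7% of HIP_4MPT and 18.3% of PFC_4MPT. Among them was cluster 5, with 4, 57, 89, 1127 and 794 cells in that order. Its best marker list was the astrocyte one, but OLIG1 and OLIG2 were among its leading genes, so it is not in the astrocyte-like class. The unnamed cluster 11 held 735 cells of PFC_4MPT, 249 of D0 and 7 to 29 of each other graft. In the 58 astrocyte-like cells of D0, 3 of 9 astrocyte markers (GFAP, AQP4 and AGT) had no UMI, and the summed level of the list was 146 CPM (UMIs of the gene per 1000000 UMIs of the class) against 422 and 689 at 2MPT and 5877 and 4666 at 4MPT. Radial glia markers were at 4515 to 8677 CPM in that class in all 5 libraries, so the D0 cells of the class carried radial glia markers without these 3 defining astrocyte markers. Progenitor-like cells differed in make-up too: cycling clusters held 47.5% of them in D0 and 68.3% to 76.8% in the grafts, and 6 inhibitory neuron markers summed to 27.4 CPM in D0, 16.3 and 49.6 CPM at 2MPT, and 553 and 1304 CPM at 4MPT, with all 6 detected there. Oligodendrocyte lineage markers summed to 25.9 CPM in D0, 38.5 and 60.2 CPM at 2MPT, and 651 and 320 CPM at 4MPT. Choroid plexus markers summed to 1191 CPM in D0 and to 2.16 to 25.8 CPM in the grafts. Progenitor-like cells of both 2MPT libraries were also unlike each other. Their radial glia markers summed to 2237 CPM at the HIP site but to 8722 CPM at the PFC site. This sum was 8065 CPM before grafting, and 4287 and 5691 CPM at 4MPT. Neuron markers of this class went the other way at 2MPT, with 2265 CPM (HIP) against 936 CPM (PFC). They were at 667 CPM before grafting, and at 835 and 1148 CPM at 4MPT. Neuron-like cells differed as well, and this class includes the intermediate-progenitor-like clusters 3 and 17. Of the neuron-like cells in D0, 752 lay in cluster 13 and 255 in cluster 18, which held at most 3 and 4 cells of any graft. The inhibitory-neuron-like cluster 8 held 92 cells in D0, 16 and 20 at 2MPT, and 246 and 1090 at 4MPT. Changes by stage within a class thus also cover changes in its make-up. The part of these differences in the results was not tested beyond the counts without single clusters given below.

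**Figure D1:**
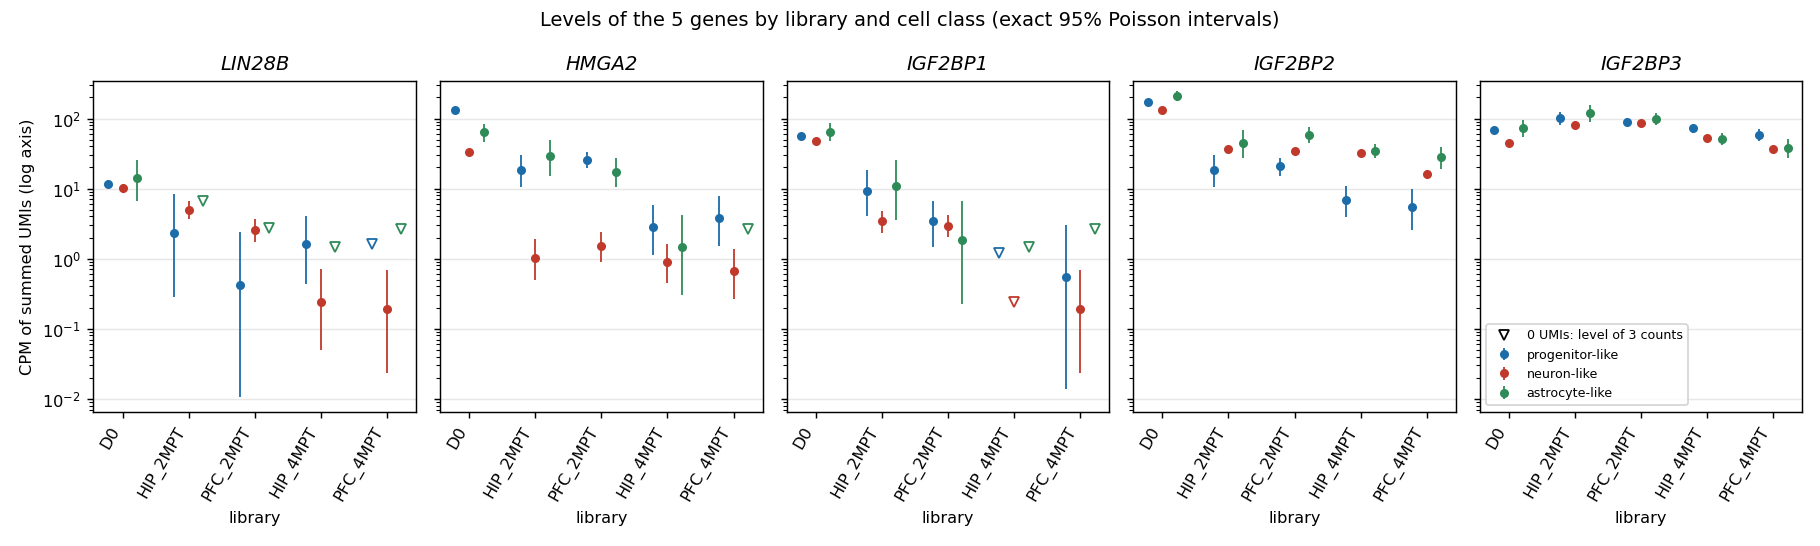
Levels of the 5 genes in each library and cell class, as CPM of summed UMIs on a log axis with exact 95% Poisson intervals, which cover counting error only. Open triangles stand for classes with 0 UMIs, drawn at the level of 3 counts. LIN28B, HMGA2 and IGF2BP1 lie below D0 in each graft and class, while IGF2BP3 stays between 36.9 and 119 CPM throughout.

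LIN28B, the inhibitor of let-7 maturation, was found in each class of D0 and had at most 4 UMIs per class in the 4MPT libraries. In neuron-like cells it was at 10.1 CPM in D0 (202 UMIs), 4.97 in HIP_2MPT and 2.58 in PFC_2MPT, then 0.244 in HIP_4MPT and 0.190 in PFC_4MPT, the last from 3 and 2 UMIs. Stages did not overlap, with D0 highest and both 4MPT libraries lowest. The fitted change was -1.59 ± 0.48 (log2, SE) from D0 to 2MPT (adjusted p = 0.0184, edgeR with Benjamini-Hochberg adjustment, as for all adjusted p below) and -3.99 ± 0.61 from 2MPT to 4MPT (adjusted p = 0.00522). The first of these calls was lost without PFC_2MPT (log2 -1.28, adjusted p = 0.0884). The summed level at 4MPT was 16.9-fold lower than at 2MPT, with a counting interval of 6.92 to 53.4.

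In progenitor-like cells, LIN28B was at 11.8 CPM in D0 (320 UMIs), 2.33 in HIP_2MPT and 0.424 in PFC_2MPT, then 1.61 in HIP_4MPT and 0 in PFC_4MPT. D0 stood above every graft, and the grafts rested on 2, 1, 4 and 0 UMIs, so the 2 graft stages overlapped. In this class LIN28B passed the filter on low counts only through D0, where it is high. The adjusted p against D0 that follows is thus no independent support. The level fell from D0 to 2MPT, by 12.6-fold on the summed UMIs (counting interval 4.29 to 61.6, adjusted p = 0.00144), and between 2MPT and 4MPT no difference was detectable at this depth (log2 0.01 ± 1.12, adjusted p = 1). Astrocyte-like cells had 10 UMIs in D0 (14.04 CPM, counting interval 6.73 to 25.8) and 0 in each of the 4 grafts. With 3 UMIs over the stage as the floor, the D0 level was 7.22-fold above the floor at 2MPT and 14.96-fold above that at 4MPT. These folds leave out the counting error of the D0 level and are no lower bounds. LIN28B did not pass the filter on low counts there and was not tested.

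HMGA2, the chromatin protein, was lower in the grafts than in D0 in each class. In progenitor-like cells it was at 131 CPM in D0 (3563 UMIs), 18.7 in HIP_2MPT and 25.4 in PFC_2MPT, then 2.82 in HIP_4MPT and 3.78 in PFC_4MPT. The 3 stages did not overlap. HMGA2 fell at each step, by 2.91 ± 0.35 on the log2 scale from D0 to 2MPT (adjusted p = 2.11e-06) and by 2.67 ± 0.43 from 2MPT to 4MPT (adjusted p = 0.00158). The later call was lost when HIP_4MPT (log2 -2.40) or PFC_4MPT (log2 -2.92) was left out. It was also lost in the non-cycling radial-glia-like cluster alone (adjusted p = 0.177) and without cluster 10, a cycling cluster led by HIST1H4C and HIST1H1B (0.115). The same held with the graft site as a replicate block (log2 -2.58, adjusted p = 0.105). The direction was kept each time.

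In neuron-like cells, HMGA2 was at 33.3 CPM in D0 (666 UMIs), 1.04 in HIP_2MPT and 1.51 in PFC_2MPT, then 0.893 in HIP_4MPT and 0.664 in PFC_4MPT. Of the 666 UMIs in D0, 142 came from the 90 cells of the intermediate-progenitor-like cluster 17 (125 CPM). Another 73 came from the 110 cells of the intermediate-progenitor-like cluster 3 (52.0 CPM), so the D0 level is not that of neurons alone. Here the called drop lay between D0 and the grafts, with log2 -4.84 ± 0.42 at 2MPT (adjusted p = 4.07e-06). From 2MPT to 4MPT no fall was called (log2 -0.66 ± 0.47, adjusted p = 0.652). The 2MPT levels rested on 10 and 17 UMIs and overlapped the host barcodes described below, so a further fall could hardly be seen. This later step was not called as different from that in progenitor-like cells (log2 2.06 ± 0.65, adjusted p = 0.201). In astrocyte-like cells it was at 63.2 CPM in D0, 28.7 in HIP_2MPT and 17.4 in PFC_2MPT, and 1.46 in HIP_4MPT (3 UMIs) and 0 in PFC_4MPT. In that class the level fell by 1.76 ± 0.50 on the log2 scale at 2MPT (adjusted p = 0.0255), a call lost without PFC_2MPT (log2 -1.43, adjusted p = 0.0704), under DESeq2 (0.236) and with a marker gate per cell (0.288). HMGA2 fell again there from 2MPT to 4MPT, where the summed UMIs went from 32 to 3, a 22.1-fold lower level (counting interval 6.91 to 113, adjusted p = 0.00784). That call was lost with the marker gate per cell (log2 -4.12, adjusted p = 0.0657). Astrocyte markers rose in this class over the same step, as given above, and their part in the fall was not tested.

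The size of the step from D0 to 2MPT was compared between classes in 1 model with the library as a term. For HMGA2, it was larger in neuron-like than in progenitor-like cells, by 2.03 ± 0.43 on the log2 scale (adjusted p = 0.00301). For IGF2BP2 it was smaller in neuron-like cells, by 1.32 ± 0.32 (adjusted p = 0.0109). Such class differences were called for 6.25% of the 15592 genes tested, and for none of the 5 members in astrocyte-like against progenitor-like cells (0.5% of genes) or from 2MPT to 4MPT (0.891% of genes for neuron-like cells and 1.21% for astrocyte-like cells). At unadjusted p under 0.05, those 3 comparisons held 2, 3 and 1 members. The HMGA2 difference missed the threshold without PFC_2MPT (adjusted p = 0.0772).

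IGF2BP1, known for its fetal expression, had at most 2 UMIs in each of the 3 classes of a 4MPT library. In neuron-like cells it was at 47.3 CPM in D0 (946 UMIs), 3.42 in HIP_2MPT and 2.94 in PFC_2MPT, then 0 in HIP_4MPT and 0.190 in PFC_4MPT. The stages were well apart, and over both 4MPT libraries 2 UMIs were left among 22867734. The summed level at 2MPT was 14.96-fold below D0 (counting interval 11.7 to 19.5, adjusted p = 1.03e-05), and the one at 4MPT was 36.1-fold below 2MPT (9.62 to 305, adjusted p = 0.00241). Of the 17640 genes tested in neuron-like cells, 9 had a lower fitted fold change from 2MPT to 4MPT. The fit is against 2 UMIs at 4MPT, so this fold change and its rank depend on the prior count.

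In progenitor-like cells, IGF2BP1 was at 56.7 CPM in D0 (1539 UMIs), 9.34 in HIP_2MPT and 3.39 in PFC_2MPT, then 0 in HIP_4MPT and 0.539 in PFC_4MPT. Again no stages overlapped. The drop from D0 to 2MPT was 11.4-fold (6.996 to 19.99, adjusted p = 4.26e-06), and that from 2MPT to 4MPT, from 16 UMIs to 1, was 21.6-fold (3.35 to 905, adjusted p = 0.0447). This last call was close to the threshold and was lost in 11 of 15 other settings, leaving out HIP_2MPT, HIP_4MPT or PFC_4MPT among them, with the direction kept in all 15. In fits of the grafts alone, with the graft site as a block or on the joint reference, IGF2BP1 was not tested in this class. Astrocyte-like cells had 46 UMIs in D0 (64.6 CPM), 5 in HIP_2MPT (11.05 CPM), 2 in PFC_2MPT (1.83 CPM) and 0 at 4MPT. IGF2BP1 was thus 14.2-fold lower at 2MPT than in D0 (6.39 to 37.4, adjusted p = 0.00308). Its 2MPT level was 4.83-fold above the floor of 3 UMIs at 4MPT, which leaves out the counting error at 2MPT and is no lower bound. The step from 2MPT to 4MPT did not pass the test (adjusted p = 0.125). It was called without the filter on low counts (log2 -5.36, adjusted p = 0.00641), and was log2 -6.51 without PFC_2MPT and -5.37 without PFC_4MPT.

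IGF2BP2, the member of the family that adult tissues are known to keep, fell against D0 in all 3 classes and was still found in each of them at 4MPT. In progenitor-like cells it was at 172 CPM in D0 (4680 UMIs), 18.7 in HIP_2MPT and 20.8 in PFC_2MPT, then 6.84 in HIP_4MPT and 5.39 in PFC_4MPT. In neuron-like cells the levels were 134, 36.7, 34.6, 31.8 and 15.9 CPM in the same order, and in astrocyte-like cells 209, 44.2, 58.7, 34.5 and 28.1 CPM. D0 stood above all grafts in each class, and 2MPT above 4MPT.

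From D0 to 2MPT, IGF2BP2 fell by 3.49 ± 0.34 on the log2 scale in progenitor-like cells (adjusted p = 1.91e-07), by 2.07 ± 0.34 in neuron-like cells (adjusted p = 4.18e-04) and by 2.21 ± 0.33 in astrocyte-like cells (adjusted p = 7.00e-04). The step from 2MPT to 4MPT did not pass the test in any class, with log2 -1.55 ± 0.38 in progenitor-like cells (adjusted p = 0.0558), -0.53 ± 0.30 in neuron-like cells (0.543) and -0.70 ± 0.30 in astrocyte-like cells (0.336). In other settings the fall was called in progenitor-like cells without the filter on low counts (adjusted p = 0.0177) and at resolution 1.6 (0.0472). Without HIP_2MPT it was log2 -1.63 there. In astrocyte-like cells it was called with cluster 5 added (log2 -1.29, adjusted p = 0.0413). At 4MPT, progenitor-like cells had the lowest level of the 3 classes in both libraries, whereas in D0 they stood between the other two.

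IGF2BP3, also known as a fetal member of the family, was not called against D0 in any class. In progenitor-like cells it was at 69.5 CPM in D0 (1886 UMIs), 102 in HIP_2MPT and 88.1 in PFC_2MPT, then 73.2 in HIP_4MPT and 57.7 in PFC_4MPT. D0 lay inside the range of the grafts, and neither 2MPT (log2 0.05 ± 0.32, adjusted p = 0.918) nor 4MPT (-0.33 ± 0.31, adjusted p = 0.426) was called against it. In neuron-like cells the levels were 45.1, 80.5, 85.1, 52.5 and 36.9 CPM, highest in both 2MPT libraries, with a log2 difference from D0 of 0.72 ± 0.32 that missed the threshold (adjusted p = 0.0846). Astrocyte-like cells had 73.0 CPM in D0, 119 and 99.0 at 2MPT, and 51.5 and 37.7 at 4MPT.

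From 2MPT to 4MPT, IGF2BP3 was called lower in astrocyte-like cells, by 1.22 ± 0.28 on the log2 scale and with an adjusted p of 0.04999 at the edge of the threshold. The call was lost in 11 of 16 other settings, with the direction kept in all 16: leaving out HIP_4MPT or PFC_4MPT moved the adjusted p to 0.0548 and 0.185, DESeq2 to 0.375 and the graft site as a block to 0.0502. In neuron-like cells the same step was log2 -0.84 ± 0.26 (adjusted p = 0.159), and in progenitor-like cells -0.38 ± 0.27 (adjusted p = 0.883). The difference between classes in this step was not called (adjusted p = 0.157 for astrocyte-like and 0.645 for neuron-like against progenitor-like cells). All 3 classes had lower values in both 4MPT than in both 2MPT libraries.

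**Figure D2:**
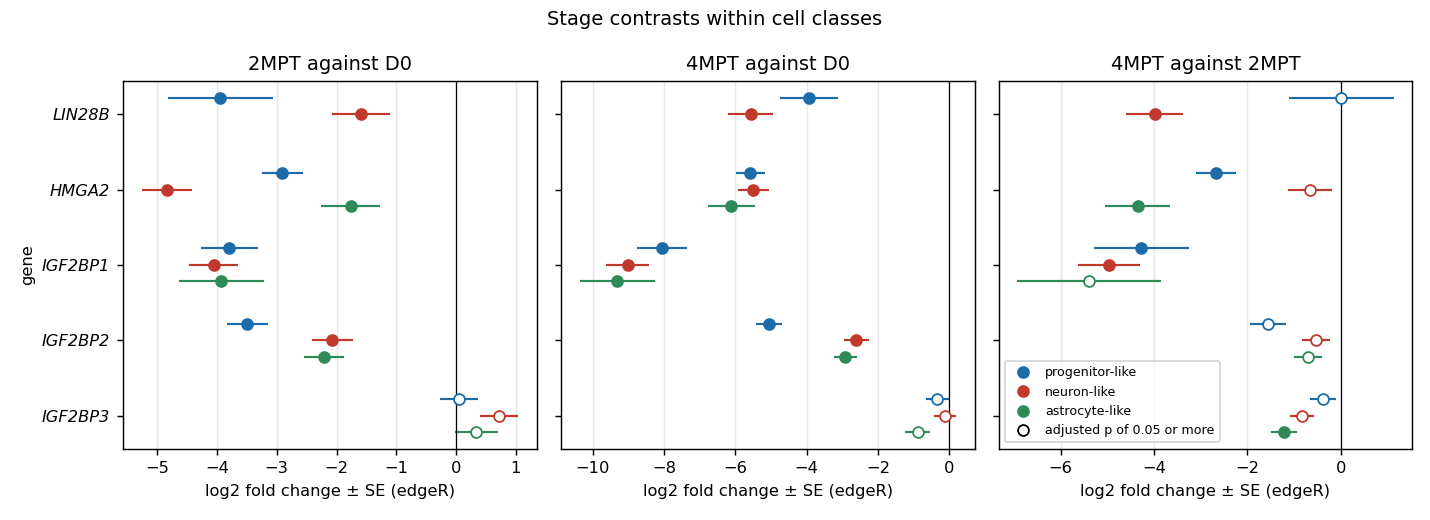
Fitted log2 fold changes with standard errors for each contrast and class (edgeR), with filled points where the adjusted p was under 0.05. LIN28B has no point for astrocyte-like cells, where it was not tested, and the IGF2BP3 points lie between -1.22 and 0.72 while those of IGF2BP1 reach -9.32, a fit against 0 UMIs that depends on the prior count.

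The members were chosen with earlier results of these data known, so the counts below describe them and are no independent evidence. LIN28B in progenitor-like cells passed the filter on low counts only through D0, where it is high. Its calls against D0 in that class add no support to the counts. Counted by class, 4 of 5 genes were lower at 2MPT than in D0 in progenitor-like cells, against 15.2% of the 13548 genes tested that were called lower and 36.3% called in either direction. In neuron-like cells it was also 4 of 5 (16.8% lower, 43% either way), and in astrocyte-like cells 3 of the 4 tested (7.13% lower, 19.5% either way), though 1 under DESeq2 and 0 with a marker gate per cell. The contrasts of 4MPT with D0 gave the same numbers, 4 of 5 (16.4% lower, 38.8% either way), 4 of 5 (18.7% lower, 46.5% either way) and 3 of 4 (9.27% lower, 24.2% either way), but they share D0 and are no separate evidence. From 2MPT to 4MPT, D0 plays no part in the difference. As a group of 1 library it did, however, let genes pass the filter on the level of 1 library. In this step 2 of 5 genes were lower in progenitor-like cells (0.325% of all genes lower, 1.05% either way), 2 of 5 in neuron-like cells (0.499% and 1.35%) and 2 of 4 in astrocyte-like cells (0.446% and 1.6%). All of these but IGF2BP3 in astrocyte-like cells passed the filter on low counts only through D0 or 2MPT, where they are high. They were below its level in both 4MPT libraries. The same held for LIN28B and IGF2BP1 over all human cells, given below. Their adjusted p in this step, also where given above, are thus no independent support. IGF2BP1, 1 of the progenitor-like genes called, was not tested in that class in fits of the grafts alone. No member was called higher in any of these 9 contrasts, in which 21.1%, 22.3% and 0.723% of all genes were called higher in progenitor-like cells, 26.2%, 27.9% and 0.856% in neuron-like cells and 12.3%, 14.9% and 1.16% in astrocyte-like cells, in the order 2MPT against D0, 4MPT against D0 and 4MPT against 2MPT. In other settings, IGF2BP3 was called higher at 2MPT than in D0 in neuron-like cells with the marker gate (log2 0.90, adjusted p = 0.0403), and lower at 4MPT than in D0 in astrocyte-like cells without HIP_2MPT (adjusted p = 0.0476) or PFC_2MPT (0.0375). The median log2 change of the members from 2MPT to 4MPT was -1.55, -0.84 and -2.78 in the 3 classes, beside -0.01 to 0 over all genes tested.

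The genes called in that last step were HMGA2 and IGF2BP1 in progenitor-like cells, LIN28B and IGF2BP1 in neuron-like cells, and HMGA2 and IGF2BP3 in astrocyte-like cells, and no class difference in this step passed its own test. The neuron-like pair held in each of 4 fits without 1 graft library. The counts in the other 2 classes did not, and ranged from 0 (without either 4MPT library) to 2 in progenitor-like cells and from 1 (without HIP_4MPT) to 3 (without PFC_2MPT) in astrocyte-like cells. Over all human cells, 4 of 5 genes were lower than in D0 at 2MPT (21.1% of 19074 genes lower, 27.2% higher, 48.3% either way) and at 4MPT (21.4% lower, 28.7% higher, 50.1% either way). There, 3 of 5 genes were lower at 4MPT than at 2MPT, namely LIN28B, HMGA2 and IGF2BP1 (0.55% of all genes lower, 1.85% higher, 2.4% either way), with 1 call left without HIP_4MPT and 0 without PFC_4MPT.

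Within the IGF2BP family, the make-up of the UMIs turned over. IGF2BP3 supplied 23.3% of the UMIs of the 3 genes in progenitor-like cells of D0, against 78.4% in HIP_2MPT and 78.5% in PFC_2MPT, then 91.5% in HIP_4MPT and 90.7% in PFC_4MPT. In neuron-like cells its share was 19.9% in D0 and 62.3% to 69.6% in the grafts, and in astrocyte-like cells 21.1% in D0 and 57.3% to 68.4% in the grafts. These shares compare UMIs within 1 library, so they do not depend on scaling between libraries. They can still carry effects of the release and annotation, which differed between D0 and the grafts. IGF2BP1 went from 18.6% to 20.9% of the family in D0 to at most 0.847% in the 4MPT libraries, and the remainder was IGF2BP2, which held 57.7% to 60.3% in D0. At 4MPT, IGF2BP2 held 8.47% and 8.54% in progenitor-like cells and 30.1% to 42.7% in the other 2 classes.

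**Figure D3:**
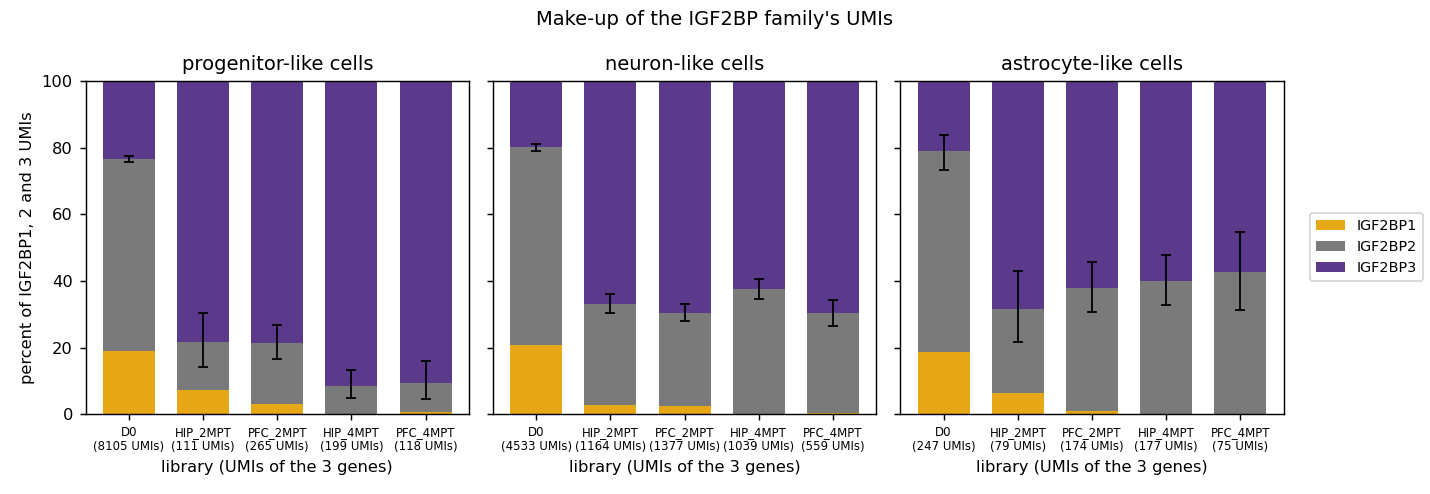
Share of IGF2BP1, IGF2BP2 and IGF2BP3 in the UMIs of the 3 genes, in percent, by library and class, with the number of UMIs under each bar. Error bars are exact 95% Clopper-Pearson intervals of the combined share of IGF2BP1 and IGF2BP2, and cover counting error only. The IGF2BP3 share is 19.9% to 23.3% in D0 and at least 57.3% in each graft.

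The same patterns were looked for in single clusters with at least 500000 UMIs in a library. In D0, all 17 such clusters had UMIs of each of the 5 genes. Free RNA was not measured in D0, so a UMI there and free RNA cannot be told apart. IGF2BP1 ranged there from 19.04 CPM in cluster 2, which is neuron-like, to 82.7 CPM in cluster 17, an intermediate-progenitor-like cluster led by NEUROG1 and DLL1. At 4MPT, IGF2BP1 was at 0 UMIs in 10 of 11 clusters of HIP_4MPT and in 8 of 10 of PFC_4MPT, and its highest level was 0.744 CPM. LIN28B ranged in D0 from 4.63 CPM in the choroid-plexus-like cluster to 20.8 CPM in the unnamed cluster 11, from 22 UMIs. Cells of cluster 11 had a median depth of 0.456 relative to their library, and no marker list stood above the other cells.

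In D0, HMGA2 was highest in clusters of dividing or early cells. It was at 145 CPM in cluster 12 (led by CDC20 and UBE2C), 139 in cluster 14, 136 in cluster 10 and 121 in the radial-glia-like cluster 6, with 125 in the intermediate-progenitor-like cluster 17 and 14.2 in the neuron-like cluster 9 (led by NNAT and LHX5-AS1). HIP_2MPT had no progenitor-like cluster of that depth. In PFC_2MPT the highest level was again in cluster 12, at 41.3 CPM, and in HIP_4MPT it was 8.33 CPM in the same cluster. In PFC_4MPT, where cluster 12 was under that depth, HMGA2 was highest in the unnamed cluster 5 (2.34 CPM) and IGF2BP3 in the unnamed cluster 11 (69.3 CPM). IGF2BP3 was also highest in cluster 12 in D0 (85.3 CPM), PFC_2MPT (136 CPM) and HIP_4MPT (115 CPM). For IGF2BP2, cluster 12 had the lowest level in PFC_2MPT (8.61 CPM from 5 UMIs) and HIP_4MPT (4.17 CPM from 3 UMIs), but 195 CPM in D0.

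**Figure D4:**
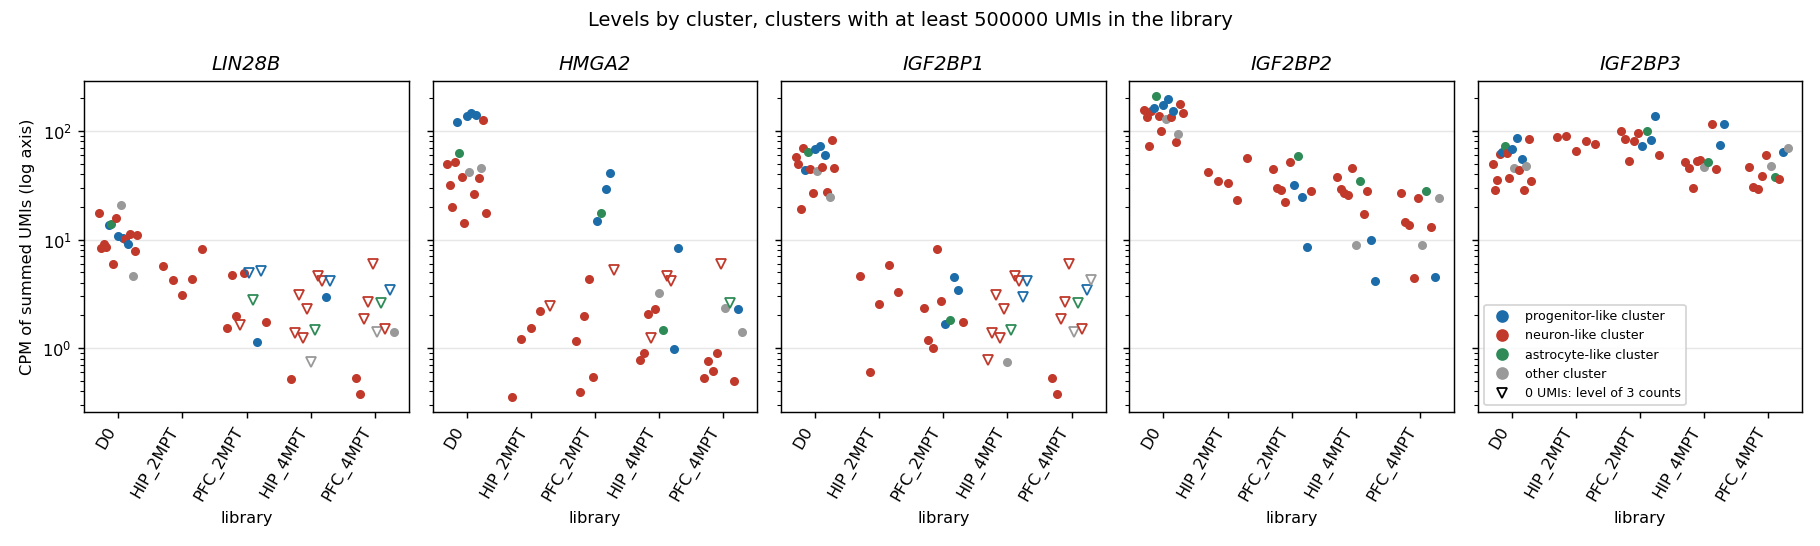
Level of each gene in every cluster with at least 500000 UMIs in a library, as CPM on a log axis, coloured by class, with clusters at 0 UMIs drawn as triangles at the level of 3 counts. IGF2BP1 is at 19.04 CPM or more in each D0 cluster and at 0 UMIs in most 4MPT clusters, and HMGA2 in D0 is highest in cluster 12 (145 CPM), a progenitor-like one.

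Depth per cell differed, so each cell was thinned to 1000 UMIs and shallower cells were left out. A UMI of HMGA2 was then found in 10.4% of progenitor-like cells of D0 (9.11% to 11.7%, exact Clopper-Pearson interval), 1.99% in HIP_2MPT and 2.51% in PFC_2MPT, then 0.405% in HIP_4MPT and 0.370% in PFC_4MPT, the last 2 from 2 cells each. Without thinning the shares were 55.3%, 3.21%, 8.37%, 1.40% and 1.08%. IGF2BP3 was found in 6.27% of thinned progenitor-like cells of D0 and in 8.61%, 7.02%, 7.69% and 4.99% of those of the grafts, whereas the unthinned share of 43.8% in D0 stood far above the grafts (15.3% to 25.8%). For IGF2BP3 the order of D0 and grafts thus depended on depth per cell. IGF2BP1 was found in 5.00% of thinned progenitor-like cells of D0 and in 0 of 494 and 0 of 541 at 4MPT, which allows shares of up to 0.744% and 0.680%.

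Cells with several of the genes were counted as well. After thinning, 32.0% of progenitor-like cells in D0 had a UMI of at least 1 of the 5 genes and 4.95% of at least 2. In the grafts the first share was 13.02% and 11.04% at 2MPT and 8.50% and 5.73% at 4MPT, and no progenitor-like cell of the 4MPT libraries held 2 of the genes. Neuron-like cells went from 22.3% with at least 1 gene in D0 to 10.96% and 11.22% at 2MPT and 8.37% and 4.88% at 4MPT.

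Free human RNA in the droplets was read from barcodes of host mouse cells, which should lack these human transcripts. Over the 4 graft libraries these barcodes, 1688 at 2MPT and 3273 at 4MPT, held 1 UMI of LIN28B, 1 of HMGA2, 0 of IGF2BP1, 7 of IGF2BP2 and 18 of IGF2BP3 in the human genome. At 4MPT, IGF2BP3 was at 22.5 CPM of the human UMIs in host barcodes (12.3 to 37.7) and was seen in 14 of 3273 barcodes, which held 623163 human UMIs in all. These barcodes held 117 human UMIs each at 2MPT and 190 at 4MPT, against 1309 to 4972 per human cell of the 3 classes, so free RNA was compared per barcode rather than per UMI. IGF2BP3 was at 4.28 UMIs per 1000 host barcodes at 4MPT (exact Poisson interval up to 7.18) and at 67.2 to 364 per 1000 cells in the 3 classes of both libraries. IGF2BP2 was at 1.53 per 1000 host barcodes (up to 3.57) and at 18.02 to 154 per 1000 cells, the lowest in progenitor-like cells of PFC_4MPT. The intervals of both genes stood above the host barcodes in all 6 sums of class and library, at 2MPT as at 4MPT. HMGA2 was at 0.306 per 1000 host barcodes at 4MPT (up to 1.70), and its intervals stood above this in progenitor-like cells of both libraries (14 and 12.6 per 1000 cells, from 7 UMIs each) but overlapped it in neuron-like and astrocyte-like cells. LIN28B stood above the host barcodes at 4MPT in 1 of 6 sums, the 4 UMIs of progenitor-like cells in HIP_4MPT, and IGF2BP1 in 0 of 6. At 2MPT it was 2 of 6 for LIN28B (both neuron-like), 4 of 6 for HMGA2 (all but neuron-like) and 5 of 6 for IGF2BP1. Where the intervals overlap, the level and free RNA were not told apart at this depth. Host barcodes were chosen for a low human share and pooled over both sites, so they set a guide and not a limit for each library. D0 had no host barcodes, so its free RNA was not measured. Choroid plexus markers summed to 252 CPM in neuron-like cells of D0 and to 1.87 to 6.41 CPM in those of the grafts. The part of free RNA in the D0 levels was not tested.

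The other genes of the pathway came from lists described by counts, also chosen with earlier results of these data known. Of 8 transcripts that host let-7 genes, 6 were tested in progenitor-like cells, and 3 were higher at 2MPT than in D0 and none lower (21.1% of all genes were called higher). MIR99AHG, the host of let-7c, was at 9.17 CPM in progenitor-like cells of D0, and in the grafts at 1562 (HIP_2MPT), 1821 (PFC_2MPT), 2418 (HIP_4MPT) and 1258 CPM (PFC_4MPT). MIRLET7BHG, the host of let-7a-3 and let-7b, was at 3.54 CPM in D0 and at 99.2, 50.4, 92.5 and 109 CPM in the grafts. Both stood apart from D0 in each class, with log2 7.14 ± 0.49 for MIR99AHG (adjusted p = 6.03e-09) and 3.95 ± 0.46 for MIRLET7BHG (adjusted p = 1.42e-06) in progenitor-like cells at 2MPT.

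MIRLET7A1HG, the host of let-7a-1, was higher in progenitor-like cells (log2 3.20 ± 0.43, adjusted p = 9.01e-06) and neuron-like cells (3.40 ± 0.46, adjusted p = 8.04e-05). MIRLET7IHG and HUWE1, which host let-7i and let-7f-2 with miR-98, were not called in either contrast with D0 in any class. WDR82, the host of let-7g, was lower at 4MPT than in D0 in progenitor-like cells (log2 -0.94 ± 0.33, adjusted p = 0.0304) and neuron-like cells (-0.78 ± 0.30, adjusted p = 0.0460). From 2MPT to 4MPT, 0 of the 6 or 7 hosts tested were called in each class by edgeR or DESeq2. At unadjusted p under 0.05 there were 0 in progenitor-like and astrocyte-like cells and 1 in neuron-like cells. On simulated counts for this step, 17 to 19 of 100 genes with a 2-fold change were found in the 3 classes. The 0 calls thus do not show that the hosts were unchanged. The libraries measure polyadenylated host transcripts near their 3′ ends and not mature let-7. Whether reads in introns were counted is not given in the sources used here, and D0 used an earlier annotation, so the size of these differences from D0 and that change cannot be told apart.

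Of 15 genes of let-7 processing and LIN28 action, 14 were tested in progenitor-like cells, where 1 was higher and 2 were lower at 2MPT than in D0. That is a smaller share than the 36.3% of all genes called in that contrast (21.1% higher, 15.2% lower). In progenitor-like cells at 2MPT, AGO1, an Argonaute protein that carries microRNAs, was lower (log2 -1.19 ± 0.34, adjusted p = 0.00976), as was DICER1, which cuts the precursors (-1.04 ± 0.36, adjusted p = 0.0270), and AGO4 was higher (1.49 ± 0.36, adjusted p = 0.00310). DROSHA, DGCR8 and XPO5, which make and export the precursors, were not called in any contrast in the 3 classes. LIN28A, the paralogue of LIN28B, had 1 UMI in HIP_2MPT progenitor-like cells, 1 UMI in D0 neuron-like cells and 0 in each other library of the 3 classes. The list's median change in progenitor-like cells was -0.36 at 2MPT, beside 0.03 over all genes.

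Among 12 other known let-7 targets, the directions were mixed. At 4MPT against D0, progenitor-like cells had 4 of 11 tested genes lower and 2 higher, neuron-like cells 6 of 12 lower and 2 higher, and astrocyte-like cells 5 of 10 lower and 1 higher. Over all genes, 16.4%, 18.7% and 9.27% were called lower in the 3 classes and 22.3%, 27.9% and 14.9% higher. HMGA1, the paralogue of HMGA2, went from 329 CPM in D0 to 43.2, 60.2, 29.0 and 31.3 CPM in progenitor-like cells (log2 -3.69 ± 0.32 at 4MPT, adjusted p = 4.71e-08), and ARID3A, PLAGL2 and MYCN were also lower at 4MPT in all 3 classes. NR6A1 went the other way, from 3.68 CPM to 38.5, 51.7, 57.5 and 24.3 CPM (log2 3.23 ± 0.47, adjusted p = 2.08e-05), and was higher in all 3 classes. The annotated 3′ UTR holds 5 seed matches in NR6A1, 2 in ARID3A, 1 each in HMGA1 and PLAGL2, and 0 in MYCN. From 2MPT to 4MPT edgeR called 0 of these genes in the 3 classes, with 2, 2 and 3 at unadjusted p under 0.05 in progenitor-like, neuron-like and astrocyte-like cells, and DESeq2 called 1, in neuron-like cells.

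The gliogenic factors, transcription factors that accompany the onset of astrocyte formation, were higher than in D0 for 4 of 5 genes in progenitor-like cells, 3 of 5 in neuron-like cells and 4 of 5 in astrocyte-like cells at 2MPT, with SOX9 lower in the first (21.1%, 26.2% and 12.3% of all genes were called higher). NFIX was at 4.31 CPM in progenitor-like cells of D0 and at 400, 283, 303 and 201 CPM in the grafts, with log2 5.90 ± 0.46 at 2MPT (adjusted p = 1.74e-08). NFIA, NFIB and ZBTB20 were higher in progenitor-like and astrocyte-like cells as well. SOX9 was lower in progenitor-like cells (log2 -0.93 ± 0.34 at 2MPT, adjusted p = 0.0383). From 2MPT to 4MPT, 0 of 5 were called in each class by edgeR or DESeq2, with 1, 2 and 1 at unadjusted p under 0.05.

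**Figure D5:**
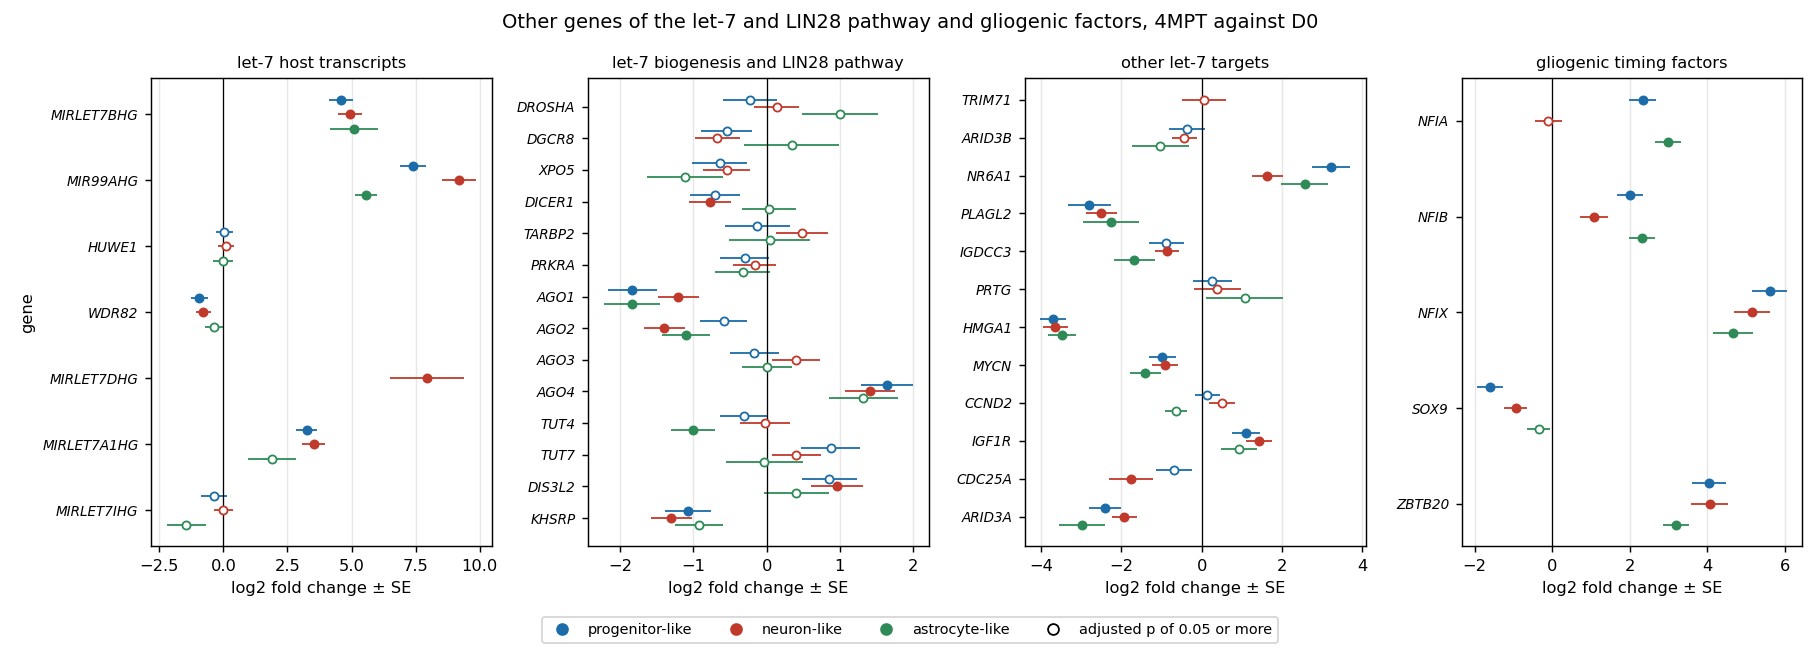
Fitted log2 fold changes at 4MPT against D0 with standard errors for the genes of 4 lists, by class, with filled points where the adjusted p was under 0.05. MIR99AHG and MIRLET7BHG lie to the right of 0 in all 3 classes, HMGA1 and PLAGL2 to the left, and most genes of let-7 processing near 0.

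Of 6 transcripts known to be bound by IGF2BP proteins or regulated by HMGA2, 3 were tested in progenitor-like cells. PLAG1, a growth-related transcription factor, was lower at 2MPT than in D0 in all 3 classes (log2 -2.87 ± 0.47 in progenitor-like cells, adjusted p = 8.83e-05), and ACTB was not called in any contrast. MYC was higher in neuron-like cells at 2MPT than in D0 (log2 1.10 ± 0.40, adjusted p = 0.0400), and CD44 in astrocyte-like cells at 4MPT than in D0 (3.90 ± 1.12, adjusted p = 0.0231). IGF2 had at most 3 UMIs in each of the 3 classes of any library.

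The likeness of the members' patterns was described over the 15 sums of 5 libraries and 3 classes, which share libraries and depth. IGF2BP1 was most like HMGA2 among the members (Pearson r = 0.867 for log2(CPM + 1)), followed by LIN28B (0.814) and IGF2BP2 (0.784), while IGF2BP3 had r of 0.0688 to 0.482 with the other 4. Among 12208 genes with a mean of at least 5 CPM, the pattern closest to LIN28B was that of UBXN7 (r = 0.923), then SINHCAF and MAPRE1. For HMGA2 the closest were POLE3 (0.939), TCF3 and MFSD2A. IGF2BP1 was closest to EIF3A (0.958), RSPO3 and CHD4, and IGF2BP2 to EFNB2 (0.951), UNC119 and GDF11. IGF2BP3 was closest to ABCF1 (0.881), LSM14A and LINC02249.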

How the data were processed

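Single-cell libraries were made with 10x Chromium 3′ V3 chemistry from D0 organoids and from grafts in the hippocampus and prefrontal cortex. The authors deposited UMI counts per gene and barcode, not normalized. The submitters' processing notes name Cell Ranger 3.1, R 4.1.1 and the human builds GRCh38 and hg38. The grafts were also deposited as counts on a joint human and mouse reference. The handling of intronic reads is not given in the sources used here.

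Cells were kept with over 500 UMIs, over 500 genes, a log10 gene to log10 UMI ratio over 0.8, a mitochondrial share under 0.15 and a human share over 0.8 of the joint counts. Host barcodes had a human share under 0.2. No doublet caller was run, and an alternative left out the deepest 5% of cells. Human cells held 55892222 UMIs in D0 and 11192237 to 21459173 in the grafts. The cells were clustered with Seurat 5.3.0 and sctransform 0.4.2 (2500 variable genes without the members and lists, reciprocal PCA, 40 components, resolution 0.8), and clusters were named from marker lists.

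UMIs were summed by library and class, and tested with the quasi-likelihood test of edgeR 4.0.16 in R 4.3.3 (filterByExpr, TMM, Benjamini-Hochberg over all genes tested, threshold 0.05) in 1 model of 3 stages. The p-values measure the spread between both graft sites at a stage, so that graft site and replicate cannot be told apart. DESeq2 1.42.0 was an alternative. On simulated counts for 4MPT against 2MPT, 68 of 100 genes with a 4-fold and 17 of 100 with a 2-fold change were found in 12162 genes of progenitor-like cells, with 5 false calls. In 16726 genes of neuron-like cells 72 and 19 were found with 5 false calls, and in 11713 genes of astrocyte-like cells 74 and 18 with 1. The simulated means were pooled over all libraries, D0 included. These rates thus do not describe genes with as few UMIs in the grafts as LIN28B or IGF2BP1. Intervals are at 95%, cover counting error only, and take 3 counts as the floor where a level is 0.

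Gene positions and UTRs came from GENCODE v44 and miRNAs from RefSeq. The members and the gene lists were chosen with earlier results of these data known. The text names the members, genes of those lists, and the 3 genes most like each member. Tables were handled in Python 3.11.15 with pandas 2.3.3 and scipy 1.17.1.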

Additional observations from a re-analysis of the deposited data

Results flagged for a closer look

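The step from D0 to 2MPT differed between neuron-like and progenitor-like cells for 2 members by the test of the difference itself. For HMGA2 the log2 difference, neuron-like minus progenitor-like, was -2.03 ± 0.43 (edgeR, adjusted p = 0.00301), and for IGF2BP2 it was 1.32 ± 0.32 (adjusted p = 0.0109). The HMGA2 call was lost without PFC_2MPT (log2 -2.00). Neuron-like HMGA2 at 2MPT rested on 10 and 17 UMIs and overlapped the host barcodes, and the make-up of both classes differed between D0 and the grafts. The part of depth and make-up in these differences was not tested.

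Mouse transcripts of the same genes were seen in the host barcodes of the grafts, in data outside the comparisons of human cells. Igf2bp2 had 85 UMIs, Igf2bp3 44 and Lin28b 12, each above the limit that a count of 0 allows. At 4MPT, Lin28b rested on 11 UMIs in 6 barcodes (0.858 CPM), whereas the 66 UMIs of Igf2bp2 came from 51 barcodes (5.15 CPM) and the 26 UMIs of Igf2bp3 from 26 barcodes (2.03 CPM). The host cells were not sorted by type here.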

How the results depend on the processing

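Of 812 recomputed fold changes of members, 740 kept their direction and side of the threshold, 45 lost the call, 10 gained it and 17 changed sign. The sign changes concerned 3 results whose reported value was near 0. IGF2BP3 in progenitor-like cells at 2MPT against D0 (0.05) became -0.00298 under DESeq2, -0.0905 without a filter on low counts, -0.14 in cluster 6 alone, -0.0591 without the deepest cells and -0.0467 to 0.0822 when 1 library was left out. LIN28B in progenitor-like cells at 4MPT against 2MPT (0.01, on 7 UMIs) became -0.26 under DESeq2, -0.00389 with cells over 1000 UMIs, -0.36 with a human share over 0.9, -0.57 with a marker gate per cell, -0.36 with a mitochondrial share under 0.10, -0.42 at resolution 1.6, -1.22 without cluster 10, -0.39 without the deepest cells and -5.66 to 1.17 when 1 library was left out. IGF2BP3 in neuron-like cells at 4MPT against D0 (-0.12) became 0.0856 with the gate and 0.0843 without PFC_4MPT. The causes were not tested.

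The count of members called was equal or close in 148 of 173 recomputations, where a shift between 4 and 3 or between 3 and 2 was taken as close. DESeq2, for example, called 3 members rather than 4 at 2MPT against D0 in progenitor-like and in neuron-like cells. For 4MPT against 2MPT in progenitor-like cells (2) it was 1 under DESeq2, RLE normalization, the joint reference, the gate, the mitochondrial limit of 0.10 and without the deepest cells, 0 in cluster 6 alone and without cluster 10, and 0 to 2 when 1 library was left out. In neuron-like cells (2) it was 1 in clusters 3 and 17 alone. In astrocyte-like cells (2) it was 1 under DESeq2, RLE normalization, cells over 1000 UMIs, the joint reference, a human share over 0.9 and without the deepest cells, 0 with the gate, and 1 to 3 when 1 library was left out. For 2MPT against D0 in astrocyte-like cells (3) it was 1 under DESeq2 and 0 with the gate, which left 49 cells in D0 and 35 and 96 at 2MPT. Leaving out 1 library, with the lone library of a stage assumed to vary like the others, gave 0 to 3 calls over all human cells at 4MPT against 2MPT (3), and 1 to 2 class differences (2). LIN28B lost its calls against D0 at 2MPT under DESeq2 in progenitor-like (adjusted p = 0.0751) and neuron-like cells (0.0680).

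The labels share a replicate number only across conditions of 1 library each, so no pairing of animals was given. With the graft site as a replicate block, the counts at 4MPT against 2MPT were 0 in progenitor-like cells, 2 in neuron-like cells, 1 in astrocyte-like cells and 3 over all human cells. IGF2BP1 was not tested in progenitor-like cells in that fit. HMGA2 was then at -2.58 in progenitor-like cells (adjusted p = 0.105) and IGF2BP3 at -1.26 in astrocyte-like cells (0.0502).

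Single-cluster fits and alternatives on the classes' clusters were chosen after seeing the data, 5 in all. Without thinning, 42 of 75 shares of cells with a UMI moved by more than their interval. Depth limits LIN28B and IGF2BP1 at 4MPT most, where classes held 0 to 4 UMIs.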
